A study of Mus musculus with 2 samples.

Results

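The cells described here are alveolar macrophages (AMs) with a high share of transcripts from the lipid genes Fabp1, Acaa1b and Cidec and from Cpne5. Barcodes of both libraries with at least 500 genes, at most 10% mitochondrial unique molecular identifiers (UMIs) and at least 2000 UMIs were taken as eligible cells. For each, the UMIs of these 4 genes were divided by all UMIs of the cell, and the highest 10% of the pooled eligible cells were chosen. This gave 1336 cells, called high-score cells, of 13355 eligible cells and 17660 barcodes in all. The remaining 12019 eligible cells are called the other cells. Since the score chose the cells, the levels of its 4 genes are a description and not a finding.

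The AMs came from lungs of C57BL/6 mice at post natal week 10. The control library was made from AMs of vehicle-treated mice, and the tumor library from AMs of mice whose left lung had received Lewis lung carcinoma (LLC) cells, a carcinoma line derived from the same strain. The study's methods describe female mice, 1 LLC line that expresses tdTomato, and FACS isolation of AMs, defined there as CD45+ autofluorescent lung cells that carry Siglec-F and F4/80. In tumor-bearing lung the CD45+ autofluorescent population also held Siglec-F- cells taken as tumor-associated macrophages, and whether Siglec-F was part of the sort for these libraries is not given in the sources used here. How many animals were pooled in each library is not given in the sources used here. UMIs per gene were counted from 10x 3′ droplet libraries, 1 per condition. No test was therefore run, every interval is at 95% and covers counting error only, and library and condition cannot be told apart. The eligible cells held 64523255 UMIs in the control library and 68445214 in the tumor library. Their median depth was 10542 and 8443 UMIs, and 17 barcode sequences occurred as eligible cells in both libraries, 1 of them as a high-score cell in each.

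AMs clear inhaled particles and spent surfactant, a lipid-rich film that lowers surface tension in the alveoli. The lipid they take up is broken down in lysosomes, stored as esters in lipid droplets, oxidised in mitochondria and peroxisomes, or exported through ABC transporters. Liver X receptors (LXRs) switch on sterol export when sterol is plentiful, whereas SREBP2 switches on sterol synthesis and uptake when it is scarce. PPARG, induced by GM-CSF, is a master regulator of AM lipid handling.

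Fabp1 encodes the liver-type fatty acid binding protein, which carries fatty acids inside the cell (chr6:71199827-71205023, + strand, GRCm38). Acaa1b is a peroxisomal thiolase of the last step of beta oxidation (chr9:119148023-119157093, − strand). Cidec coats lipid droplets and promotes their fusion (chr6:113424634-113435760, − strand). Cpne5 is a copine, a calcium-dependent membrane-binding protein (chr17:29155556-29238167, − strand). Abca1, a marker given for these cells that is not in the score, exports cholesterol to apolipoprotein A-I (chr4:53030787-53159895, − strand). Reads from Acaa1b can be hard to separate from those of its paralog Acaa1a, since 23.0% of the runs of 91 bases in the last 500 bases of its transcripts also occur in Acaa1a, whereas none did for Fabp1, Cidec, Cpne5 or Abca1.

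Upstream sequence is shown for Fabp1, which gave most of the score, and for Hmgcs1, an early enzyme of sterol synthesis, whose genes were low in the chosen cells. They are also the only score gene and the only matched synthesis gene with a match to a motif searched, so they do not stand for the other genes. RefSeq promoters (GRCm38.p6) were matched for the 4 score genes and for 17 of 24 listed cholesterol synthesis genes. The 250 bases before each start were searched on both strands for AGGNCANAGGNCA, a direct repeat of the kind bound by PPAR and RXR, for AGGNCANNNNAGGNCA, a spacing bound by LXR and RXR, and for TCACNCCAC, a sterol regulatory element. Capitals mark the match, which is a description of letters and not a site. The first motif occurred in 0.338% of 32851 promoters and, among the score genes, in Fabp1 alone, on the opposite strand. The third occurred in 1.05% of promoters and, among the matched synthesis genes, in Hmgcs1 alone. The spacing of 4 bases occurred in 0.213% of promoters and in none of these genes. Of 13 matched export genes, none held that spacing, Apoc2 held the first motif and Abca3 the third. The Fabp1 stretch is chr6:71199629-71199826 (+ strand), the first 198 of the bases searched, cut where the annotated gene begins upstream of the RefSeq start, and the Hmgcs1 stretch is chr13:119690101-119690350 (+ strand).
Fabp1: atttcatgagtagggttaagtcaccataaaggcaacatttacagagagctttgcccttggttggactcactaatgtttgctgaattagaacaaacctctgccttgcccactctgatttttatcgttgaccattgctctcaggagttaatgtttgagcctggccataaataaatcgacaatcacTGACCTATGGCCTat
Hmgcs1: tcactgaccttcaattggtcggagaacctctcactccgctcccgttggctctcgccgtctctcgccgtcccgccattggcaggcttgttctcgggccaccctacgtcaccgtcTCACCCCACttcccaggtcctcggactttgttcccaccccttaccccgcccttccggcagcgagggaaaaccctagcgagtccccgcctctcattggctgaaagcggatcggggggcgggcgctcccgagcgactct

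High-score cells made up a larger share of the control library than of the tumor library. They were 1048 of 5949 eligible control cells (17.6%, interval 16.7 to 18.6) and 288 of 7406 eligible tumor cells (3.89%, 3.46 to 4.35). The tumor share was 0.221 times the control share (0.186 to 0.261). The threshold fell in a continuous distribution, with the lowest high-score cells at 1662.6 score UMIs per 1000000 UMIs of the cell and the highest other cells at 1662.0. The median eligible cell had a score of 818 in the control library and 185 in the tumor library, and cells with no score UMI were 3.88% and 36.1% of them. The ratio of shares was 0.479 when Fabp1 was left out of the score, which kept 602 of the 1336 cells (45.1%), and 0.372 when the 30% of cells richest in Apoe, S100a6, S100a4, Ifi27l2a and Crip1 UMIs were left out. These 5 genes, chosen because they were known to lead cells of the tumor library, summed to 3229 CPM (summed UMIs of a group of cells per 1000000 of its UMIs) in the other tumor cells against 539 CPM in the tumor high-score cells, and to 581 and 225 CPM in the control library. 

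**Figure D1:**
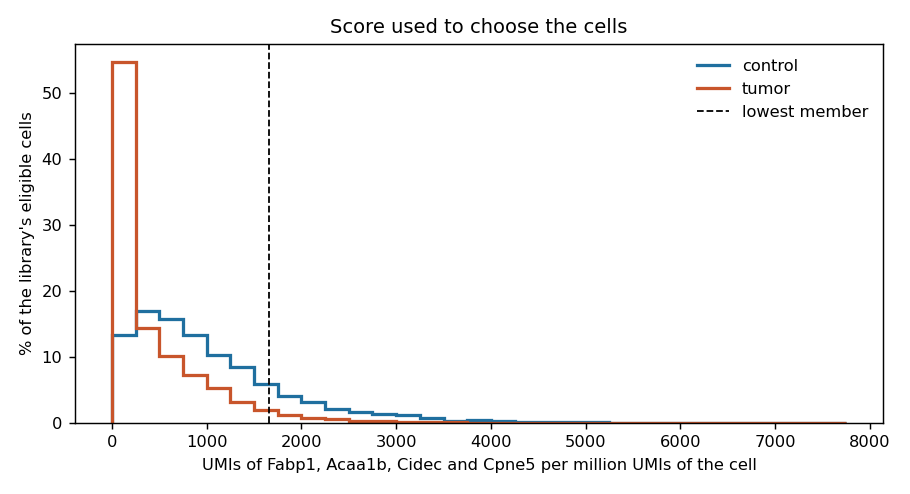
Score of each eligible cell (x axis, UMIs of the 4 score genes per 1000000 UMIs of the cell, in steps of 250) against the percentage of each library's eligible cells (y axis). The dashed line is the lowest high-score cell, at 1662.6 per 1000000, with 17.6% of control and 3.89% of tumor cells at or above it.

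The score genes did not contribute alike in the libraries. Fabp1 stood at 1661 CPM in control high-score cells and 1274 CPM in tumor ones, against 293 and 93.1 CPM in the other cells. Acaa1b stood at 255 and 286 CPM, against 101 and 45.3 CPM. Cidec stood at 408 and 548 CPM, against 224 and 138 CPM. Cpne5 was the lowest of the 4, at 179 and 143 CPM, against 88.4 and 29.7 CPM in the other cells. Fabp1 gave 66.4% of the score UMIs of the control high-score cells and 56.6% of the tumor ones, and Cidec 16.3% and 24.4%. All 4 genes had a UMI in 620 control (59.2%) and 109 tumor (37.8%) high-score cells, whose median depths were 9920 and 7234 UMIs.

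The 4 genes went together also where the gene in question took no part in choosing the cells. The 4 were taken as a set with earlier results of these data known, so this is a description and not independent support. With each left out of the score in turn, the log2 ratio of chosen over other cells was 0.81 in the control and 1.82 in the tumor library for Fabp1, 0.89 and 1.97 for Acaa1b, 0.52 and 1.43 for Cidec, and 0.71 and 1.68 for Cpne5. The signal was low in the 22 cells (11 per library) with over 0.5% of UMIs from markers of neutrophils, dendritic, lymphoid, epithelial or endothelial cells or fibroblasts. In the control library they held 3 UMIs of Fabp1 and 1 of Cidec, a summed 107 CPM, and in the tumor library no score UMI, and no high-score cell was among them. The barcodes that failed the filters (2536 control and 1769 tumor, with median depths of 1050 and 1127 UMIs) held the score genes at 573 and 235 CPM. Of these barcodes 11.4% and 4.07% were at or above the threshold of the high-score cells.

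Most high-score cells were led by Fabp1, and a smaller set by Cidec. Fabp1 had the most UMIs of the 4 in 915 control (87.3%) and 184 tumor (63.9%) high-score cells, and Cidec in 68 (6.49%) and 65 (22.6%). The Cidec-led cells had more of the sterol exporters. Abca1 was at 141 CPM (interval 111 to 176) in the Cidec-led and 107 CPM (101 to 114) in the Fabp1-led control cells, and at 185 CPM (144 to 233) against 85.1 CPM (70.9 to 101) in the tumor library. Abcg1 was at 1856 against 1464 CPM and at 2026 against 1547 CPM. Ear1, an eosinophil-associated ribonuclease that marks AMs, went the other way, at 583 against 768 CPM in the control and 527 against 723 CPM in the tumor library. The Cidec-led cells were the shallower ones, with a median of 7688 against 10120 UMIs in the control and 5794 against 7744 in the tumor library. Whether depth has a part in these differences was not tested.

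Few genes beyond the score differed by much between the high-score and the other cells. Of 5351 genes with at least 20 CPM in each library, 3 (0.0561%) were at least 1.5-fold higher in high-score cells in both libraries, and 51 (0.953%) at least 1.5-fold lower. Since the minimum was taken over all eligible cells, most of them other cells, it is passed more easily by genes low in high-score cells. Without it the counts were 239 and 366 of 11860 genes. These genes still needed a UMI in the high-score and in the other cells of each library. Genes absent from the high-score cells of a library were thus left out, so these counts are not free of a filter either. The 3 were Ear1, Acot1, an acyl-CoA thioesterase, and Wfdc10, a whey acidic protein family gene. Over all genes tested, the median log2 ratio of high-score over other cells was 0.03 in the control and 0.04 in the tumor library. By any amount, 41.3% of the genes were higher and 25% lower in both libraries, and the counts for the gene lists that follow are by any amount in both libraries, to be read against these shares. Opposite directions in the libraries, with counting intervals on opposite sides of 0, were found for 74 genes (1.38%).

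Several cholesterol export genes were higher in the high-score cells of both libraries. Of 11 tested genes of sterol export and LXR targets, 8 were higher and 1 lower, with median log2 ratios of 0.16 in the control and 0.37 in the tumor library, or 0.27 and 0.18 without Apoe-rich cells. Abca1 was at 111 CPM in high-score and 78.5 CPM in other control cells, and at 117 and 55.8 CPM in those of the tumor library. The log2 ratios were 0.51 (0.41 to 0.60) and 1.06 (0.87 to 1.25), the latter 0.65 without Apoe-rich cells. Abcg1, which exports cholesterol to high-density lipoprotein, was at 1503 and 1231 CPM in the control library and at 1691 and 1145 CPM in the tumor library. Mylip, a ubiquitin ligase and LXR target, was at 67.3 against 48.3 CPM and at 97.9 against 39.0 CPM. The apolipoprotein Apoc1 had log2 ratios of 0.46 (0.27 to 0.64) and 1.05 (0.79 to 1.30), and the phospholipid transfer protein Pltp 0.27 and 0.62. The exception was Apoe, a lipid carrier and LXR target, at 21.2 against 26.4 CPM in the control and 54.8 against 622 CPM in the tumor library, log2 ratios of −0.32 and −3.51. Without the Apoe-rich cells, which Apoe itself helped to choose, they were 0.42 and −0.25. Nr1h3, the LXR gene itself, was at 39.5 against 43.2 CPM and 63.7 against 62.8 CPM.

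Cholesterol synthesis genes stood the other way. Of 16 tested, 14 were lower and none higher in both libraries, and 7 were among the 51 genes at least 1.5-fold lower. The medians were −0.49 in the control and −0.65 in the tumor library. Sqle, which forms squalene epoxide, had log2 ratios of −0.90 (−1.18 to −0.63) and −0.84 (−1.32 to −0.40). Fdps, which makes farnesyl diphosphate, had −0.82 and −0.90, with 39.7% of its transcript-end runs shared with other genes. The tumor value of Sqle ran from −1.69 for the highest 5% of cells to −0.52 without Apoe-rich cells. That of Fdps ran from −1.70 without Fabp1 in the score to −0.45 without Apoe-rich cells. Idi1, Fdft1, Cyp51 and Msmo1 were also among the 7. Hmgcs1, whose upstream sequence is printed above, had −0.30 and −0.56, and Srebf2, the gene of SREBP2, −0.50 and −0.55. Mvd and Ebp were mixed. Without Apoe-rich cells the list's medians were −0.49 and −0.45, with 14 of 16 lower and 1 higher.

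**Figure D2:**
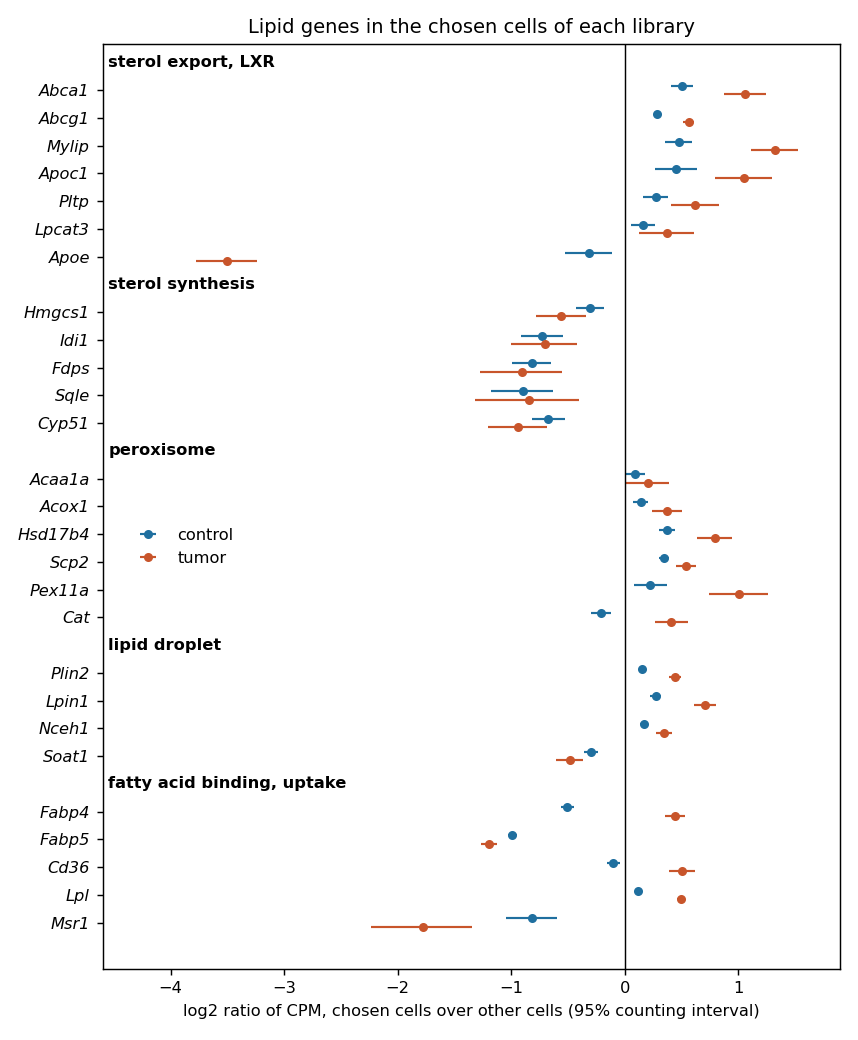
Log2 ratio of CPM in high-score over other cells (x axis) for lipid genes grouped by role, in the control and the tumor library, with 95% counting intervals. Of the genes drawn, export genes other than Apoe lie above 0 and synthesis genes below 0 in both libraries, whereas Cat, Fabp4 and Cd36 lie on opposite sides.

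These differences ran stepwise along the score. The eligible cells were ranked by score and cut in 10 groups of equal size. The cells with no score UMI (231 control and 2673 tumor) fill the lowest groups and part of group 3, and were kept apart from the rest of group 3. Abca1 was at 43.4 CPM in control cells without a score UMI, 56.4 CPM in score group 5, 94.9 CPM in group 8 and 111 CPM in group 10, the high-score cells. In the tumor library the same steps were 39.3, 57.5, 102 and 117 CPM. At a given score the libraries were thus near each other for Abca1. The summed level of the synthesis list went from 1354 CPM in control cells without a score UMI to 691 CPM in group 10, and in the tumor library from 1608.5 to 857 CPM, with group 9 slightly lower at 815 CPM. It was higher in the tumor than in the control library in each group shown.

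**Figure D3:**
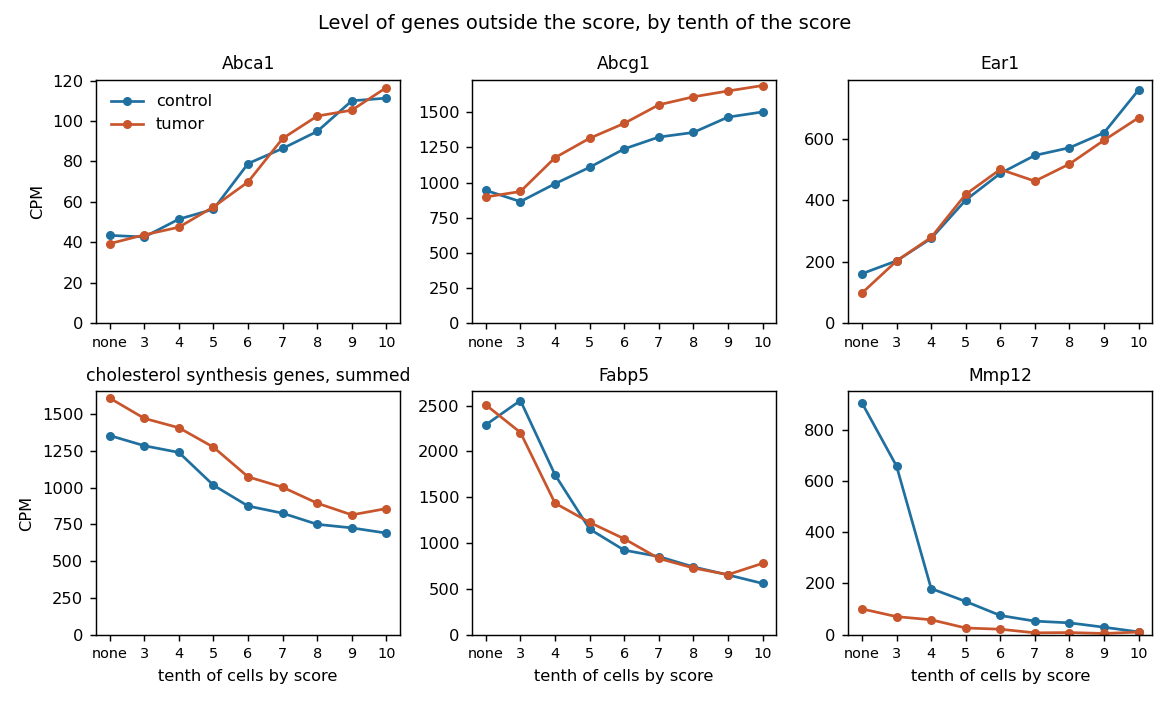
Level (y axis, CPM of summed UMIs) of 5 genes outside the score and of the summed cholesterol synthesis genes, in cells with no score UMI and in groups 3 to 10 of the eligible cells ranked by score (x axis), by library. Abca1 goes from 43.4 to 111 CPM in the control library and from 39.3 to 117 CPM in the tumor library, and Mmp12 from 904 to 10.9 CPM in the control library.

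Genes of fatty acid oxidation were modestly higher. In the peroxisome, 10 of 16 tested genes were higher and 2 lower, with medians of 0.12 in the control and 0.38 in the tumor library, the latter 0.17 without Apoe-rich cells. Hsd17b4, the multifunctional enzyme that precedes the thiolase step, was at 188 against 145 CPM and 171 against 98.4 CPM. Scp2, which holds a thiolase and a sterol carrier domain, was at 511 against 402 CPM and 497 against 342 CPM. Pex11a, which promotes peroxisome division, was at 46.2 against 39.5 CPM and 62.3 against 31.1 CPM, a tumor ratio that without Apoe-rich cells was 0.46 on the log2 scale. Acaa1a, the paralog of Acaa1b, had 0.09 and 0.21, well below the ratios of Acaa1b when that gene was left out of the score. In mitochondria, 12 of 17 tested genes were higher and none lower, with medians of 0.17 and 0.26. Hadhb, the thiolase subunit of the trifunctional protein, had 0.28 and 0.41, and Cpt1a, which admits fatty acids to mitochondria, 0.21 and 0.29.

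Lipid droplet genes were higher or lower about as often as all genes tested, of which 41.3% were higher and 25% lower. Of 14 tested, 6 were higher and 4 lower in both libraries, with medians of 0.03 and 0.19, the latter 0.07 without Apoe-rich cells. Plin2, the main droplet coat protein of macrophages, was at 1320.2 against 1186 CPM in the control and 1408 against 1035 CPM in the tumor library. Lpin1, a phosphatidate phosphatase, had log2 ratios of 0.27 and 0.71, and Nceh1, a cholesteryl ester hydrolase, 0.17 and 0.35. Soat1, which makes cholesteryl esters, was lower at −0.30 and −0.48, and Hilpda, an inhibitor of lipolysis, at −0.34 and −0.07.

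Fabp5 was lower in the high-score cells of both libraries, and Fabp4 differed in direction between them. Fabp5, the epidermal-type protein, was at 560 against 1112 CPM in the control and 778 against 1778 CPM in the tumor library, log2 ratios of −0.99 (−1.03 to −0.95) and −1.19 (−1.26 to −1.12), the second being −0.59 without Apoe-rich cells. Fabp4, the adipocyte-type protein and a PPARG target, was lower in the control library, at 258 against 367 CPM, and higher in the tumor library, at 500 against 368 CPM. Of 10 tested genes of fatty acid binding and uptake, 2 were higher and 4 lower. The scavenger receptor Msr1 was lower at −0.82 and −1.78, and lipoprotein lipase, Lpl, higher at 0.12 and 0.49. Of the fatty acid synthesis genes 5 were tested, of which 2 were higher and 3 lower, with medians of −0.02 and −0.04.

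The regulators showed small differences. Of 18 tested genes of the PPARG and GM-CSF axis, 8 were higher and 3 lower, with medians of 0.03 and 0.07. Pparg was at 136 against 126 CPM in the control and 151 against 118 CPM in the tumor library, and its target Angptl4 at 116 against 94.5 CPM and 100 against 75.9 CPM. The 3 lower genes were the GM-CSF receptor chains Csf2ra, Csf2rb and Csf2rb2, whose log2 ratios lay between −0.06 and −0.47. Csf2rb and Csf2rb2 are paralogs, so the split of reads between them is uncertain. Rara, a retinoic acid receptor, was among the 12 genes named for a large ratio in both libraries, at 0.41 and 0.46. Among the copines other than Cpne5, Cpne8 had 0.04 and 0.81, Cpne1 0.12 and 0.28, and Cpne3 0.12 and −0.08.

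Lysosomal genes were lower as a group. Of 24 tested, 19 were lower and 4 higher, with medians of −0.16 and −0.23. Ctsk, a cysteine protease, was the one past 1.5-fold, at 259 against 561 CPM in the control and 361 against 655 CPM in the tumor library. Ctsd, Ctsb, Psap and Cd68 had log2 ratios between −0.33 and −0.58. Lipa, which frees cholesterol from lysosomal esters, had −0.30 and −0.08, and Npc2, which passes cholesterol out of the lysosome, −0.15 and −0.55. Pla2g15, a lysosomal phospholipase that degrades surfactant phospholipid, was higher at 0.12 and 0.30.

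By markers the high-score cells were AMs. The 20 AM markers, each detected, summed to 22733 CPM in control and 24849 CPM in tumor high-score cells, against 24455 and 21186 CPM in the other cells. Of the 20, 11 were higher, 6 lower and 3 mixed. The 6 lower ones were Ctsk, Car4, Cd200r4, Itgax, Siglec1 and Slc7a2. Marco, a scavenger receptor, was at 672 against 568 CPM and at 487 against 197 CPM, its tumor log2 ratio of 1.31 being 0.54 without Apoe-rich cells. Krt79 and Krt19, keratin genes expressed by AMs, had log2 ratios of 0.34 and 0.40 in the control and 1.11 and 1.23 in the tumor library, the last being 0.62 without Apoe-rich cells. Chil3, the chitinase-like protein abundant in AMs, was lower in the control library, at 9424 against 12063 CPM, and higher in the tumor library, at 12106 against 10467 CPM. Adipocytes also express Cidec and Fabp4, but of the defining adipocyte markers Adipoq was at 1 UMI in all high-score cells and Lep and Cfd at 0. The 5 adipocyte markers summed to 540.2 and 578 CPM in high-score cells against 494 and 482 CPM in the others, nearly all of it Adipor2, a widely expressed adiponectin receptor, with log2 ratios of 0.13 and 0.26. The 13 markers of monocyte-derived macrophages summed to 261 and 265 CPM in high-score cells against 358 and 662 CPM in the others, with Ly6c2 and C1qc at 0. Markers of neutrophils (7) were at 79.7 and 98.3 CPM against 120 and 152 CPM, those of epithelium (12) at 181 and 79.1 CPM against 135 and 91.4 CPM, and those of endothelium (7) at 49.0 and 41.7 CPM against 60.2 and 59.4 CPM. Markers of dendritic cells, T and NK cells, B cells, fibroblasts and erythroid cells each summed to at most 4.68 CPM in high-score cells.

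The ribonuclease genes Ear1 and Ear2 were among the genes with the largest ratios. Ear1 was at 760 CPM in high-score and 469 CPM in other control cells, and at 669 and 274 CPM in the tumor library, log2 ratios of 0.70 (0.66 to 0.73) and 1.29 (1.21 to 1.37). Ear2 was at 1524 against 1081 CPM and at 1234 against 782 CPM. Their transcript ends share runs of bases with each other and with other Ear genes (25.8% for Ear1 and 9.27% for Ear2), so their split is uncertain. Acot1 was at 86.1 against 55.1 CPM and 71.2 against 23.8 CPM, with 22.8% of its runs shared with Acot2, and Wfdc10 at 86.0 against 55.3 CPM and 81.5 against 29.0 CPM. When cells were thinned to 2000 UMIs before scoring, none of the 3 genes past 1.5-fold was still past it in both libraries, though all 3 kept their direction. The high-score cells overlapped in part with the Ear-high cells. Of the 1336 cells with the highest Ear1 and Ear2 share, 321 (24%) were high-score cells, 273 of 879 in the control and 48 of 457 in the tumor library. These were 26.0% of the control and 16.7% of the tumor high-score cells, above the 14.8% and 6.17% of all eligible cells. The high-score cells shared 16 cells (1.2%) with the equal-sized group highest in Hmox1, Fth1, Ftl1 and Slc40a1. They shared 2 cells (0.15%) with that highest in Apoe and S100a6. Each group is 10% of all eligible cells, but its share differed by library. The Ear group held 14.8% of control and 6.17% of tumor cells, the Hmox1 group 7.09% and 12.3%, and the Apoe group 0.975% and 17.3%.

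Other genes with the largest ratios in the same direction were Lima1, an actin-binding protein, Bzw2, Rassf5, a RAP1 effector, Pmepa1, a TGF-β target, Cfp, the complement factor properdin, and Ccnd2, a D-type cyclin. Ccnd2 was at 643 against 480 CPM and 586 against 246 CPM, and Cfp at 92.9 against 62.7 CPM and 71.2 against 53.0 CPM. Of 16 listed genes of G2 and mitosis 2 were tested and both were lower, Mki67 at 33.3 against 71.6 CPM and 10.8 against 30.5 CPM, and Top2a at 27.1 against 60.5 CPM and 4.21 against 26.5 CPM. Their median log2 ratios of −1.13 in the control and −2.08 in the tumor library were −0.23 and −0.35 without cycling cells. Of 7 tested S phase genes, 4 were higher and 1 lower, with medians of 0.09 and 0.002. Of 16 stress and immediate early genes, which also respond to tissue dissociation, 12 were higher and 2 lower. Egr1 was at 145 against 104 CPM and 317 against 132 CPM. The heat shock gene Hspa1b was at 143 against 98.7 CPM and 817 against 293 CPM, its control log2 ratio of 0.53 being 0.07 when Fabp1 was left out of the score. The part of dissociation in these values was not tested.

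Genes with at least 50 CPM in each library were ranked by their ratio in the library where it was less extreme. By this rule the lowest relative to the other cells was Mmp12, the macrophage elastase, though S100a6 was lower in the tumor library. Mmp12 was at 10.9 CPM in high-score and 145 CPM in other control cells, and at 10.3 and 60.7 CPM in the tumor library, log2 ratios of −3.74 (−4.02 to −3.47) and −2.56 (−3.23 to −1.96), the first being −2.33 when cells were thinned to 2000 UMIs before scoring. Mfge8, which bridges apoptotic cells to phagocytes, was at 10.1 against 76.0 CPM and 18.7 against 107 CPM. Wfdc17 was at 62.7 against 255 CPM and 94.6 against 471 CPM. In the other cells Mmp12 came from few cells, since 3919 of 4901 control and 6570 of 7118 tumor cells had no Mmp12 UMI, and the highest 5% of cells held 81.1% and 95.2% of its UMIs. Along the score Mmp12 went from 904 CPM in control cells without a score UMI to 180 CPM in group 4 and 29.2 CPM in group 9, so that most of the step lay far below the high-score cells. Gpnmb, a glycoprotein of lipid-laden macrophages, Cd63, a tetraspanin of late endosomes, and Igf1 were also at least 1.5-fold lower in both libraries, as were the cytokine Il1b, at 64.6 against 150 CPM and 240 against 702 CPM, and the chemokine Cxcl1. All 8 tested genes of the activin and tumor macrophage list were lower, 4 of them by 1.5-fold, with medians of −1.06 and −1.21.

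The lower genes were also measured without the Apoe-rich cells, which left 5496 control and 3852 tumor cells. Of the 51, 31 were then still at least 1.5-fold lower in both libraries, and all kept their direction. These counts include S100a6, S100a4, Ifi27l2a and Crip1, which were used to choose the cells left out. The tumor log2 ratio of Mmp12 was then −0.89, that of Mfge8 −1.46, of Wfdc17 −1.25 and of Gpnmb −0.79 in place of −1.45. In the control library Mmp12 was at −3.48, Fabp5 at −0.96 and Abca1 at 0.47.

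High-score cells of the tumor library were also compared with those of the control library. Of 5637 genes tested, 72 (1.28%) were at least 2-fold higher in tumor and 20 (0.355%) at least 2-fold lower, against 95 (1.69%) and 28 (0.497%) among the other cells. The count of lower genes was 10 without cycling cells and 59 in the highest 5% of cells by score. The genes named next are those with the largest and the smallest ratios once genes under 100 CPM in both libraries were left out. Inhba, the gene of the activin A subunit, had the largest, at 12.2 CPM in control and 125 CPM in tumor high-score cells, or 3.35 on the log2 scale (3.04 to 3.67), and at 52.2 and 148 CPM in the other cells. Of the control high-score cells 1009 of 1048 had no Inhba UMI and 1 cell held 50 of the 128 UMIs, and of the tumor ones 237 of 288 had none. The log2 ratio among high-score cells was 1.72 when Fabp1 was left out of the score. Hspa1b and Hspa1a followed with 2.52 and 2.31, then Il1b at 64.6 and 240 CPM, Cd83, an activation marker, at 38.6 and 128 CPM, and Gadd45b, Tnfaip3, Pim3, Nr4a1 and Id2 with log2 ratios between 1.43 and 1.55. In the other cells the log2 ratio was 1.57 for Hspa1b, 1.23 for Hspa1a and 2.23 for Il1b, the last against 1.89 in high-score cells. By any amount, 52% of the genes tested were higher in tumor high-score cells. All 12 tested inflammatory cytokine and response genes were, 7 of them by 2-fold, with a median of 1.16 against 1.06 in the other cells.

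Class II antigen presentation genes were lower in the tumor high-score cells. H2-Aa was at 105 CPM in control and 15.5 CPM in tumor high-score cells, H2-Ab1 at 118 and 18.7 CPM, and the invariant chain Cd74 at 482 and 96.5 CPM, log2 ratios of −2.77, −2.65 and −2.32. In the other cells the ratios were −0.06, −0.10 and −0.27. These transcripts came from few cells. With H2-Eb1 added, the tumor high-score cells held 294 such UMIs, 76.5% of them in 15 cells, and 222 of the 288 had none, whereas 526 of the 1048 control high-score cells had none. The other genes named by this rule had smaller differences, among them the neuropeptide gene Gal at 123 and 48.2 CPM, Stmn1, a tubulin-binding protein, at 138 and 60.4 CPM, and Car4, a carbonic anhydrase, at 208 and 117 CPM. The log2 ratios of these 3 were −1.35, −1.20 and −0.83 in the high-score cells, and −2.14, −1.04 and −0.82 in the other cells. Of the genes left out for a low level, the 3 tested genes of G2 and mitosis were each at least 2-fold lower in tumor.

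**Figure D4:**
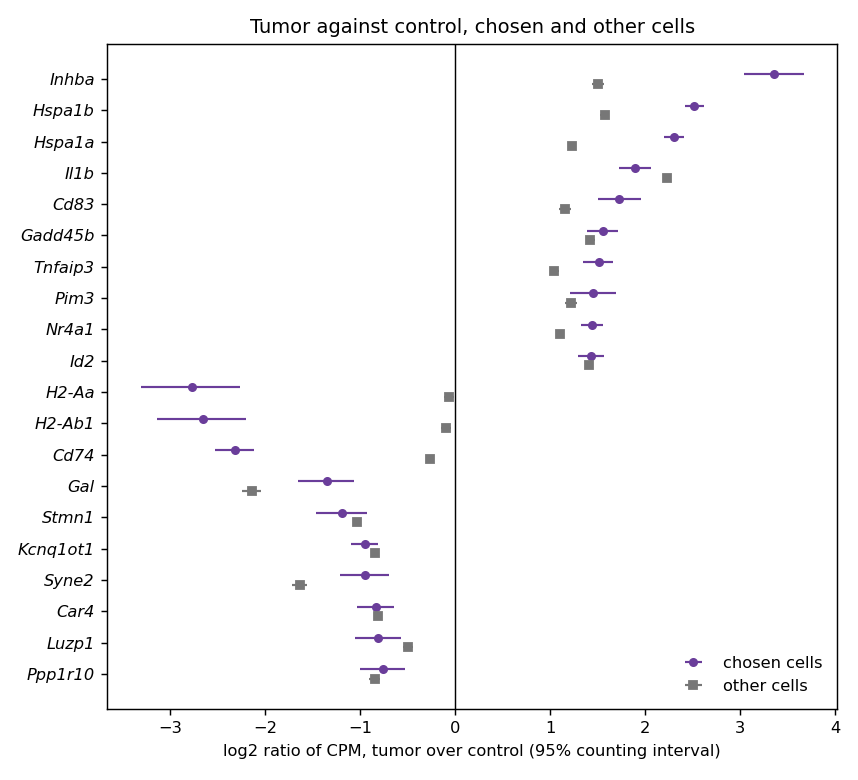
Log2 ratio of CPM, tumor over control (x axis), in high-score and in other cells for the 10 genes with the largest and the 10 with the smallest ratio among high-score cells, genes under 100 CPM in both libraries left out, with 95% counting intervals. Inhba is at 3.35 in the high-score cells, and H2-Aa at −2.77 against −0.06.

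The lipid lists were also compared between the high-score cells of the libraries, where the median log2 ratio over all genes tested was 0.01. Tumor over control, the median log2 ratio was 0.17 for peroxisomal, 0.03 for mitochondrial, 0.21 for export and 0.39 for synthesis genes, the last against 0.71 in the other cells. For Abca1 it was 0.07 (−0.14 to 0.27), with 111 CPM in control and 117 CPM in tumor high-score cells, and −0.49 in the other cells. Apoe, at 21.2 and 54.8 CPM, and Apoc1, at 29.2 and 64.6 CPM, were the export genes past 2-fold, Apoc1 no longer when Acaa1b was left out of the score (0.67 on the log2 scale). Dgat1, which makes triglyceride, was the droplet gene past 2-fold, at 76.6 and 165 CPM, with a ratio as large in the other cells (1.11 and 1.04). Fabp4 had 258 CPM in control and 500 CPM in tumor high-score cells, or 0.95 on the log2 scale, against 0.01 in the other cells.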

How the data were processed

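Single-cell transcriptomes of AMs were taken from 2 deposited tables, 1 per condition, that hold whole-number counts of UMIs, with genes and barcodes as margins. Per the labels the authors ran bcl2fastq 2.20 and Cell Ranger 4.0.0 on mm10, whereas the paper's methods name a later Cell Ranger version. The deposited counts are not normalized. Of 32285 gene identifiers, 32158 were matched to a symbol. Hashtags, which the methods mention, were not analysed here.

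From the counts, CPM of UMIs summed over cells and ratios of CPM were computed, with exact Poisson, conditional binomial and Clopper-Pearson intervals. No p-value was computed. Genes with at least 20 CPM over the eligible cells of each library (for tumor over control, of both libraries together) were set against folds of 1.5 and 2, and are called tested, with ribosomal, mitochondrial and score genes left out. Some genes of the lists are counted but not reported by name here. Doublets were kept. Scrublet's automatic threshold marked 0% of either library and so did not work, and an alternative left out the cells with the highest 6% of scores. The members and gene lists were chosen with earlier results of these data known. Named genes were the score genes, Abca1, listed lipid genes, the 12 genes with the largest and the 12 with the smallest ratio of high-score over other cells in both libraries (at least 50 CPM), and the 10 with the largest and smallest ratio of tumor over control (at least 100 CPM in the higher library). Abca1 was not counted among the 12 largest, nor Fabp5 and Ctsk among the 12 smallest, although their ratios would have placed them there. From other lists, the genes that the text names were chosen after their values were seen, as were Acot1 and Wfdc10. Alternatives changed quality filters, the size of the chosen group, pooling, score genes, depth, scaling, the CPM minimum, and cells left out. Ratios and intervals were tested on simulated data with independent counts, the coverage of intervals in cells set as members and not in those chosen by score. Genes whose UMIs lie in few cells are not covered by that test. Python 3.11.15, numpy 2.4.6, scipy 1.17.1, scanpy 1.11.5, anndata 0.12.19 and matplotlib 3.10.9 were used.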

Additional observations from a re-analysis of the deposited data

Results flagged for a closer look

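The log2 ratio of high-score over other cells had opposite signs in the 2 libraries, with counting intervals on opposite sides of 0, for 14 of the 253 named and listed genes that were tested (5.53%). Over all 5351 genes tested it was 74 (1.38%). The difference between the libraries was not tested for any of them, since each condition has 1 library. For class II antigen presentation the control ratios were slightly positive and the tumor ratios negative. H2-Aa had 0.17 and −2.53, H2-Ab1 0.14 and −2.41, H2-Eb1 0.16 and −2.66, H2-DMb1 0.12 and −0.36, and Cd74 0.14 and −1.91. The small control values depended on the processing. After thinning to 2000 UMIs they were 0.04 for H2-Aa, −0.10 for H2-Ab1 and −0.02 for Cd74, with 3 of the 6 tested class II genes lower in both libraries, and with the mean of each cell's own CPM the value of H2-Aa was 0.00048. The tumor values of H2-Aa, H2-Ab1 and Cd74 were below 0 under each alternative, the nearest to 0 being −1.53, −1.32 and −0.88 without Apoe-rich cells.

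The other 9 genes were lower in the control and higher in the tumor high-score cells. Among lipid and redox genes, Fabp4 had −0.51 and 0.44, the fatty acid transporter Cd36 −0.10 and 0.51, the peroxisomal catalase Cat −0.21 and 0.41, the carnitine acetyltransferase Crat −0.18 and 0.30, and the glutathione reductase Gsr −0.078 and 0.26. Chil3 had −0.36 and 0.21. Among inflammatory genes, Cd83 had −0.30 and 0.28, Tnfaip3 −0.32 and 0.14, and the chemokine Ccl3 −0.12 and 0.19.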

How the results depend on the processing

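Except where 10% of each library was taken, which fixes it, the ratio of shares was below 1 under each alternative, from 0.158 for the highest 5% of cells to 0.479 without Fabp1 in the score. It was 0.292 for the highest 20%, 0.181 without Cidec, 0.280 after thinning each cell to 2000 UMIs, 0.271 with cells chosen in a random part of their UMIs, and 0.372 without Apoe-rich cells. Genes at least 1.5-fold higher numbered 5 for the highest 20%, 6 without Fabp1, 0 after thinning, 1 with split UMIs, 7 at a minimum of 5 CPM and 239 without a minimum. Those at least 1.5-fold lower numbered 121 at 5 CPM, 366 without a minimum and 31 without Apoe-rich cells. The genes tested numbered 5351 in the main analysis, 8419 at 5 CPM, 11860 without a minimum and 5445 without Apoe-rich cells. Among high-score cells, 157 and 820 genes were 2-fold higher in tumor at the lower minimum and without one, and 176 and 634 were lower. In the main analysis 72 were higher and 20 lower, of 5637 genes tested. How many genes were tested for tumor over control at the lower minimum and without one was not counted, so no share is given. The count of lower genes was 59 for the highest 5%, 36 with split UMIs and 10 without cycling cells. The cause of these shifts was not tested, except that a lower minimum adds genes. Of the values for single genes and lists, 10116 stayed within a set range and 1094 left it over 19 alternatives. None of those past a fold threshold changed direction. The range was the counting interval for a single gene and a fixed band around the main median for a list. Alternatives of the CPM minimum cannot move these values and are counted as staying within the range. Apoe, at −0.32 in the control library, was at 0.42 without Apoe-rich cells. No paired analysis was possible because each condition has 1 library. Depth limits genes with few UMIs in the 288 tumor high-score cells, such as S100a4 at 8.43 CPM.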
